A study of Mus musculus with 7 samples.

Results

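The sites described here are the places in undifferentiated mouse embryonic stem cells (ESCs) where the transcription factor Oct1 had a peak, its relative Oct4 had none, and Oct1 had none later during mesodermal differentiation. They were chosen by overlap of the authors' peak lists, so the presence or absence of a peak in each list is what selected them and is not a finding. An ESC Oct1 peak was a member when it shared at least 1 bp with no ESC Oct4 peak, no day 3 Oct1 peak and no day 6 Oct1 peak. This held for 6384 of 17709 ESC Oct1 peaks, or 36.0% (exact 95% interval 35.3 to 36.8). They are called ESC Oct1-only sites below. No listed peak means only that none passed the authors' threshold there, not that the factor was absent.

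Binding was profiled by ChIP-seq, in which chromatin fragments crosslinked to a factor are recovered with an antibody and sequenced. All 7 samples came from cells of the genotype labelled Parental, namely Oct1 (antibody NBP2-21584) and Oct4 (antibody sc-5279) in ESCs, Oct1 with the same antibody at day 3 and day 6 of mesodermal differentiation, and 3 inputs without antibody that were not used here. Differentiation was by Bmp4 for 2 days followed by Rspo3 and the BMP receptor inhibitor LDN-193189 for 4 days. Each group had 1 library, so no difference could be set against the spread between replicates, no test across libraries was made, and every interval below covers the counting of peaks or promoters alone. The lists held peaks and a score, not reads or RNA, so the depth reached is unknown (100 M read pairs per library were stated) and the labelled cell type could not be checked by expression.

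Oct1, encoded by Pou2f1, is expressed in most cell types, whereas Oct4, encoded by Pou5f1, is a core factor of the pluripotent state. Both contact DNA through a POU domain made of a POU-specific part and a homeodomain, and both recognise the octamer ATGCAAAT. In pluripotent cells Oct4 is best known for binding next to Sox2 on composite sequences that join an octamer-like stretch to a Sox motif, while Oct1 is classically known at promoters of small nuclear RNA, histone and immunoglobulin genes.

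Sequences from ESC Oct1-only sites at gene starts are shown first, because they let the octamer be seen in place. They are RefSeq promoter windows of assembly GRCm38.p6, running from 250 bases before to 50 bases after an annotated start, 5′ to 3′ on the strand of the gene. The first group holds the windows with an exact octamer among the 15 best-scored sites on such windows. Capitals mark the octamer, which here always reads in its reverse complement, ATTTGCAT. Zfyve26, which encodes spastizin, a protein of lysosome and autophagy function, has its window at chr12:79296233-79296532 on the minus strand, with the octamer starting 94 bases before the start. The long non-coding RNA gene Gm34297 has its window at chr10:98537238-98537537 on the plus strand, with the octamer 71 bases before the start. Another long non-coding RNA gene, Gm32296, has its window at chr12:85537920-85538219 on the plus strand and carries 2 octamers, 181 and 113 bases before the start.
Zfyve26: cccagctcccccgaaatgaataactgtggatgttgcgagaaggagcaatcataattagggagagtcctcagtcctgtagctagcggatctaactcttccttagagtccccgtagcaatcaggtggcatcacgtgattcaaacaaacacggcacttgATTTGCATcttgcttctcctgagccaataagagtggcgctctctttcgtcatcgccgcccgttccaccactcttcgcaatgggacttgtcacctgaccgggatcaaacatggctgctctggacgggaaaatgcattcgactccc
Gm34297: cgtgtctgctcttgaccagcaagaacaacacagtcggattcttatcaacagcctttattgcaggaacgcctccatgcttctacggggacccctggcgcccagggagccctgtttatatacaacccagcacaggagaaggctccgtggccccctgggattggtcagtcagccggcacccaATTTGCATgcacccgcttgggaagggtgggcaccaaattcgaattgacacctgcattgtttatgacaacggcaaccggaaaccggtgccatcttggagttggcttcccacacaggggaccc
Gm32296: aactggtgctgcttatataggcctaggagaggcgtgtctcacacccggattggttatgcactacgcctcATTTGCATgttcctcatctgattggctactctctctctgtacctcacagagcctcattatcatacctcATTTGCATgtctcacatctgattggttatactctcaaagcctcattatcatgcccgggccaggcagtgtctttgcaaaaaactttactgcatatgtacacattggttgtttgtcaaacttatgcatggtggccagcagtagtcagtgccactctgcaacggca

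Next come a pair of gene starts of known biology that lacked an exact octamer. These and the comparison after them were picked once their values had been seen. Nanog encodes a homeodomain factor of the pluripotent state, and its window lies at chr6:122707239-122707538 on the plus strand. Capitals mark TTTGCAT, the reverse complement of the octamer's first 7 letters, and ACAATG, the reverse complement of the Sox core CATTGT. These start 75 and 67 bases before the start, and 1 base lies between them. Kcnq1ot1 is a paternally expressed long non-coding RNA that silences neighbouring genes in cis at an imprinted domain. Its window lies at chr7:143296498-143296797 on the minus strand, and capitals mark 3 CCAAT boxes in the forward sense, at 188, 148 and 67 bases before the start.
Nanog: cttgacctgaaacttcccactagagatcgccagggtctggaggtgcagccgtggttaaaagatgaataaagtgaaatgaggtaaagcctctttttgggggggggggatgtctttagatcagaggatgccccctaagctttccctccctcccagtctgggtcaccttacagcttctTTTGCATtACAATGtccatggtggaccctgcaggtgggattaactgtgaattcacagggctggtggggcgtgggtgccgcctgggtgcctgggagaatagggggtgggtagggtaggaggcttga
Kcnq1ot1: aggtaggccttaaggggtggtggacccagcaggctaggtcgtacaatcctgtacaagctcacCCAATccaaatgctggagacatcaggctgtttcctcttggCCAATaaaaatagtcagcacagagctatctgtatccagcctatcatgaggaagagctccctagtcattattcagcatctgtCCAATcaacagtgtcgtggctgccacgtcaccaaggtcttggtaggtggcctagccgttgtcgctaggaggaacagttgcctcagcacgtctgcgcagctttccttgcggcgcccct

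For comparison, Cables2 is a gene start where ESC Oct1 had no Oct4 peak but had an Oct1 peak again later. Its window lies at chr2:180273416-180273715 on the minus strand. It carries 3 octamers, in capitals, at 206, 157 and 59 bases before the start, and 43 CpG dinucleotides, against 15 in the Zfyve26 window, 12 at Gm34297, 5 at Gm32296, 9 at Kcnq1ot1 and 4 at Nanog.
Cables2: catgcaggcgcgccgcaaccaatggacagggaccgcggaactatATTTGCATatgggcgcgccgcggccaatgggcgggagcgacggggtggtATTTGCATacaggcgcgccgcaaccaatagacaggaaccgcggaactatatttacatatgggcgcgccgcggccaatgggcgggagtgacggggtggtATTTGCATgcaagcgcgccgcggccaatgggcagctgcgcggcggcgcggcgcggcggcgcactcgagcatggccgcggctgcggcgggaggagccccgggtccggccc

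The authors' score, a whole number per peak without a stated unit, was used only to rank peaks within the ESC Oct1 list. The ESC Oct1-only sites had a median score of 100 (95% interval 100 to 100), with the middle 50% of sites between 71 and 167 and extremes of 22 and 7068. This was the median of the 9105 ESC Oct1 peaks that overlapped Oct4 and had no later peak, called shared lost sites below, which was also 100. The 864 Oct1-only peaks that did overlap a day 3 or day 6 peak, called kept Oct1-only sites, had a median of 247 (217 to 276). The 1356 peaks with both an Oct4 and a later Oct1 peak, called shared kept sites, had a median of 182 (174 to 196). On a percentile scale of the whole list, the ESC Oct1-only sites centred on 46.6 and the kept Oct1-only sites on 84.9. The rule decides membership by whether peaks passed thresholds elsewhere, so these levels are given as a description.

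ESC Oct1-only sites made up 47.2% (45.1 to 49.4) of the lowest of 10 score classes, where tied scores were kept together. They made up 33.8% to 37.8% of each of the next 8 classes and 27.1% of the highest. Of the members, 962 (15.1%) lay in that lowest class. Only 10 of the 179 peaks in the top 1% of the list were ESC Oct1-only sites (5.59%), and 41 members had a score above 1000. Members were also narrower, with a median width of 570 bp against 670 bp for shared lost sites and 620 bp for kept Oct1-only sites. The narrowest width in the lists, 500 bp, was that of 8.96% of members and 3.45% of shared lost sites, a difference of 5.51 percentage points (4.73 to 6.32). A narrower peak has less room to overlap another, and the part of width in membership was not tested.

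**Figure D1:**
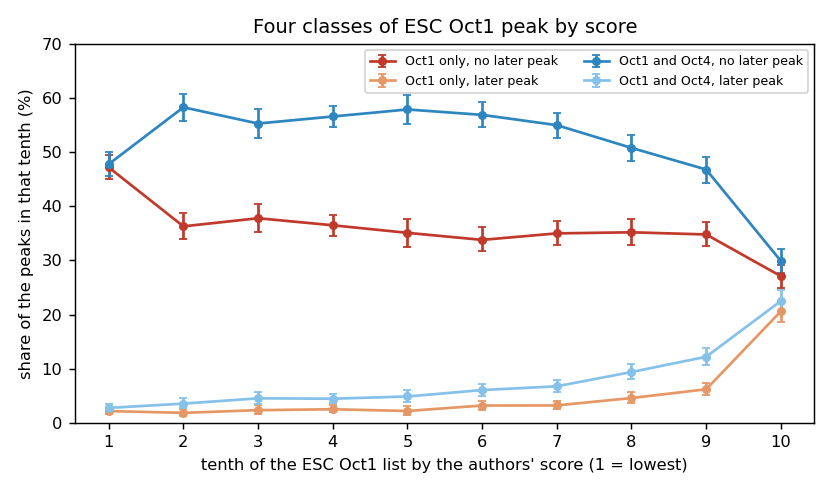
Share of each of 10 score classes of the ESC Oct1 list (y axis, percent, with exact 95% intervals) held by the 4 classes of peak, against the authors' score from lowest to highest (x axis). ESC Oct1-only sites (red) fall from 47.2% in the lowest class to 27.1% in the highest, where kept Oct1-only sites (orange) reach 20.6%.

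Of 7248 ESC Oct1 peaks without Oct4, 6384 (88.1%, 87.3 to 88.8) had no later peak and are the members. The share without a later peak was similar among ESC Oct1 peaks with Oct4, at 9105 of 10461 (87.0%, 86.4 to 87.7). Of the other peaks without Oct4, 473 overlapped a day 3 peak alone, 98 a day 6 peak alone and 293 both. The peaks named here from each side of the rule's boundary had scores from 53 to 282. Just inside, a site at Cdh4 (score 80) touched an Oct4 peak of score 94 without sharing a base, and sites at Maml3 (score 62) and Ptprn2 (score 111) lay 20 bp from an Oct4 peak. Just outside, peaks at Bsnd (score 71), Lrp8 (score 53) and Ccdc63 (score 282) each shared 10 bp with an Oct4 peak. In all, 24 members had a gap of at most 100 bp to an excluding peak, and 30 peaks were excluded by at most 100 shared bp.

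Gaps to the other lists were much longer for later Oct1 than for Oct4, whose list was also the longest. The median gap from an ESC Oct1-only site was 10765 bp to the nearest of 22817 Oct4 peaks, 79430 bp to the nearest of 4867 day 3 peaks and 59695 bp to the nearest of 7758 day 6 peaks. An Oct4 peak lay within 10 kb of 3093 sites (48.4%) and within 500 bp of 332 (5.20%). Without ESC Oct1 peaks that had another ESC Oct1 peak within 10 kb, the share within 10 kb of Oct4 was 22.3% (20.9 to 23.7). A day 3 peak lay within 10 kb of 570 sites (8.93%) and a day 6 peak within 10 kb of 626 (9.81%). No peak of any of the 3 lists lay within 10 kb of 2994 sites (46.9%), nor within 100 kb of 481 (7.53%).

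**Figure D2:**
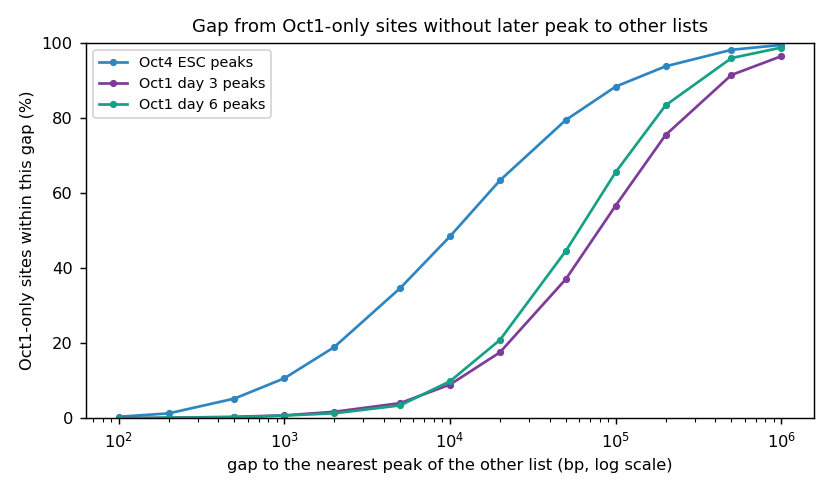
Share of ESC Oct1-only sites (y axis, percent) whose nearest Oct4 ESC, Oct1 day 3 or Oct1 day 6 peak lies within a given gap (x axis, bp on a log scale). At a gap of 10000 bp the curves stand at 48.4% for Oct4, 8.93% for day 3 and 9.81% for day 6.

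Most ESC Oct1-only sites stood alone. With members at most 10 kb apart joined into runs, 5045 sites (79.0%) formed runs of 1, and the longest run held 6. That run covered 19190 bp beside Cpsf4l on chromosome 11, with scores from 80 to 255. A run of 5 lay at Acox3, which encodes a peroxisomal acyl-CoA oxidase, with scores from 40 to 1646. Another run of 5 lay at Tnnt1 and Dnaaf3, genes of slow skeletal troponin T and of dynein arm assembly, with scores from 106 to 454. Any other ESC Oct1 peak lay within 10 kb of 44.4% of members, which differed from shared lost sites by -7.66 points (-9.25 to -6.06) and from kept Oct1-only sites by 9.93 points (6.48 to 13.3).

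The ESC Oct1-only sites were mostly away from gene ends, as shared lost sites were, whereas kept Oct1-only sites gathered there. The gene table gives gene ends without strand, so a site was first called at a gene end when its midpoint was no more than 1 kb from the first or last base of a gene. This held for 922 members, or 14.4% (13.6 to 15.3), against 17.3% of all ESC Oct1 peaks. Shared lost sites stood at 14.6%, and the difference of -0.143 points had an interval of -1.26 to 0.991. Kept Oct1-only sites stood at 46.8%, and members differed from them by -32.3 points (-35.8 to -28.9). Members had a median distance of 8370 bp (8059 to 8853) to a gene end, shared lost sites one of 7625 bp (7377 to 7870) and kept Oct1-only sites one of 1416 bp. Within 5 kb of a gene end, members were at 36.6% and differed by -2.35 points (-3.90 to -0.801) from shared lost sites.

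The difference from kept sites was widest among high scores. From the lowest to the highest quartile of the ESC Oct1 score, 11.9%, 13.5%, 15.2% and 18.1% of members lay at gene ends, against 16.7%, 23.6%, 43.7% and 57.6% of kept Oct1-only sites. In the lowest quartile the interval of the difference, -13.9 to 1.68 points, included 0, and in the highest it was -44.2 to -34.8. Against shared lost sites the interval of the difference included 0 in each of the 4 quartiles. Strand was known from the promoter windows for 590 of the 922 members at gene ends, and 346 of these (58.6%, 54.6 to 62.7) were at the start of the gene. For kept Oct1-only sites the start took 278 of 305 (91.1%, 87.4 to 94.1), and for shared lost sites 446 of 829 (53.8%, 50.3 to 57.2).

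**Figure D3:**
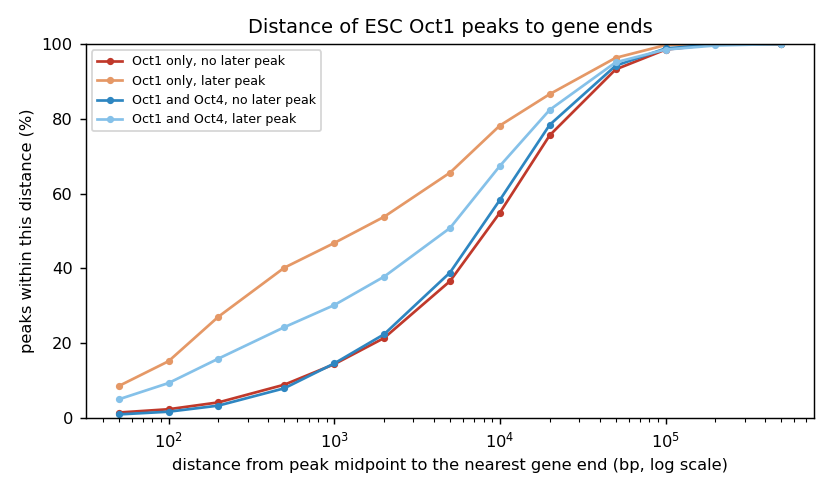
Cumulative share of ESC Oct1 peaks (y axis, percent) by the distance from the peak midpoint to the nearest gene end (x axis, bp on a log scale), for the 4 classes. At 1000 bp ESC Oct1-only sites (red) stand at 14.4%, next to shared lost sites at 14.6% and below kept Oct1-only sites at 46.8%.

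Inside an annotated gene lay 4134 ESC Oct1-only sites (64.8%, 63.6 to 65.9). They differed by -4.15 points (-5.66 to -2.64) from shared lost sites and by 6.19 points (2.74 to 9.70) from kept Oct1-only sites. Whether a site inside a gene was exonic or intronic is not known here. The nearest gene was protein-coding for 66.0% of members and a long non-coding RNA for 26.3% (25.2 to 27.4). The latter share was 4.71 points (3.34 to 6.08) above shared lost sites. Counted over nearest genes of every type, the 6384 sites fell to 4678 genes, 2887 of them protein-coding.

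The sites with the highest scores lay at coding and non-coding genes alike. The top score, 7068, belonged to a site at chr12:54738431-54738930, 58 bp from the small nuclear RNA gene Gm22317. A day 3 Oct1 peak lay 3290 bp from it, and a neighbouring member, with a score of 282, lay 424 bp from another small nuclear RNA gene, Gm25679. Small nuclear RNA genes are a classical class of Oct1 target, and 4 members (0.0627%) lay within 500 bp of the end of one as nearest gene, the other pair being at Gm23405 (score 111) and Gm23354 (score 32). This was 15 of 864 kept Oct1-only sites (1.74%), 3 of 1356 shared kept sites (0.221%), 0 of 9105 shared lost sites and 0.124% of all ESC Oct1 peaks. Reads of such repeated genes can map to several copies, so their placement is uncertain.

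Behind Gm22317, the next sites by score lay at the non-coding gene Gm29483 (3783), inside Cystm1 (2582) and inside Erich1 (2479). A site inside Bsn, the gene of the presynaptic scaffold protein Bassoon, scored 2194. A site 23010 bp from Otp, a homeobox gene of hypothalamic neurons, scored 2053, and its nearest Oct4 peak was 172400 bp away. Inside Vti1a, the gene of a SNARE protein of vesicle traffic, a site scored 1470. At Aloxe3, a lipoxygenase gene of the skin barrier, a site 3575 bp outside the gene scored 1413. Of the 20 best-scored sites, 13 had a protein-coding nearest gene, 6 a long non-coding RNA and 1 the small nuclear RNA. Within 10 kb of these 20 sites, 10 had an Oct4 peak and 4 a later Oct1 peak. The closest was at Sfi1, a centrosome gene, where an Oct4 peak of score 5922 in its own list lay 150 bp from the member, which scored 1397.

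At promoters, 290 ESC Oct1-only sites overlapped 340 RefSeq promoter windows of 308 genes. Partial overlap was enough, and 138 of these windows lay wholly inside the peak. By score the sites were led by those at St7 (1816), Tex19.1 (1774), Zfyve26 (1395), Xlr3b (1229) and Etfbkmt (1040). Tex19.1 acts in the germ line and placenta, where it restrains retrotransposons, and its site lay 6790 bp from the nearest Oct4 peak and 57750 bp from the nearest day 3 peak. Xlr3b and Xlr3a (740) are neighbouring X-linked copies of a gene family, so reads could be split between them and both values are uncertain. Further down came the non-coding genes Gm34297 (909), E330020D12Rik (857), Parvaos (840), Gm32296 (807), Gm41507 (800) and Gm30366 (713). The other coding genes of the first 15 were Smug1 (807), which encodes a uracil-DNA glycosylase of base excision repair, and the Y-linked ubiquitin-activating gene Uba1y (658). Kcnq1ot1 (647) was the last of the 15, and the Oct4, day 3 and day 6 peaks nearest to it were 79880, 120970 and 103150 bp away.

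The octamer, searched as ATGCAAAT on both strands, was in 10 of the 340 promoter windows of ESC Oct1-only sites, or 2.94% (1.42 to 5.34), against 1.74% of all 32851 windows. This share was close to the background. Among the 402 windows of kept Oct1-only sites it was 14.2%, and the difference of member from kept windows was -11.2 points (-15.2 to -7.35). Against the 452 windows of shared lost sites, at 1.33%, the difference was 1.61 points with an interval of -0.423 to 4.11. The 10 windows were those of Zfyve26, Gm34297, Gm32296, D130040H23Rik, Plet1, Gm52564, Gm31529, Zfp120, Gm21814 and Gm11186. Plet1 encodes a surface protein of trophoblast and epithelial progenitors, and its site scored 352.

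Octamer windows lay mostly at members of higher score. When the 340 windows were split at a score of 156, 9 of 169 above it held an octamer (5.33%, 2.46 to 9.87) and 1 of 171 at or below it (0.585%, 0.0148 to 3.22). Members in the highest quartile of the whole list had 8 of 142 windows with an octamer (5.63%), and kept Oct1-only sites in that quartile had 54 of 295 (18.3%). That difference was -12.7 points, with an interval of -18.2 to -6.20. Scores were not matched within that quartile. Of its 517 kept Oct1-only sites 364 were in the highest of the 10 score classes, against 479 of its 1426 members. The part of score in the difference was not tested.

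In all, 7 motifs were set against 3 other classes and all other windows, which made 28 differences with intervals not adjusted for their number. The CCAAT box, the core of the motif bound by NF-Y, was in 45.0% of member windows (39.6 to 50.5), 11.8 points (4.96 to 18.6) above shared lost sites and 7.67 points (2.44 to 13.0) above all other windows. Within quartiles of score, the share was above that of shared lost sites by most in the highest (58.5% against 34.7%) and below it in the second (37.5% against 41.2%). From kept Oct1-only sites it differed by -14.7 points (-21.7 to -7.50). The GC box GGGCGG was in 27.1% of member windows, near the 27.4% of shared lost sites. All other windows stood at 35.7%, and members differed from them by -8.69 points (-13.2 to -3.70). Kept Oct1-only sites stood at 69.9%, and members differed from them by -42.8 points (-49.0 to -36.0). The Sox core CATTGT was in 12.9% of member windows and 12.6% of all windows. Members were above kept Oct1-only sites in it by 4.73 points (0.310 to 9.34) and above shared kept sites by 5.95 points (1.56 to 10.5). The E box CACGTG was in 7.65% of member windows and 7.15% of all windows. The octamer with any base in place of its first central A, ATGCNAAT, which includes the octamer, was in 4.41% of member windows, 3.15% of all windows and 19.9% of those of kept Oct1-only sites. The first 7 letters of the octamer, ATGCAAA, which any full octamer also holds, were added after the Nanog window had been read. As a description they were in 7.06% of member windows, the Nanog window among them, 4.63% of all windows and 18.4% of windows of kept Oct1-only sites.

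Base composition differed along with these motifs. Member windows had a median of 7 CpG dinucleotides (6 to 7), as did shared lost windows and all windows, while windows of kept Oct1-only sites had 19 (18 to 20). Long non-coding RNA genes accounted for 41.8% of member windows, 41.2% of shared lost windows, 35.3% of all windows and 10.7% of windows of kept Oct1-only sites. GC box and CpG content move together by construction, and their separate parts were not tested.

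**Figure D4:**
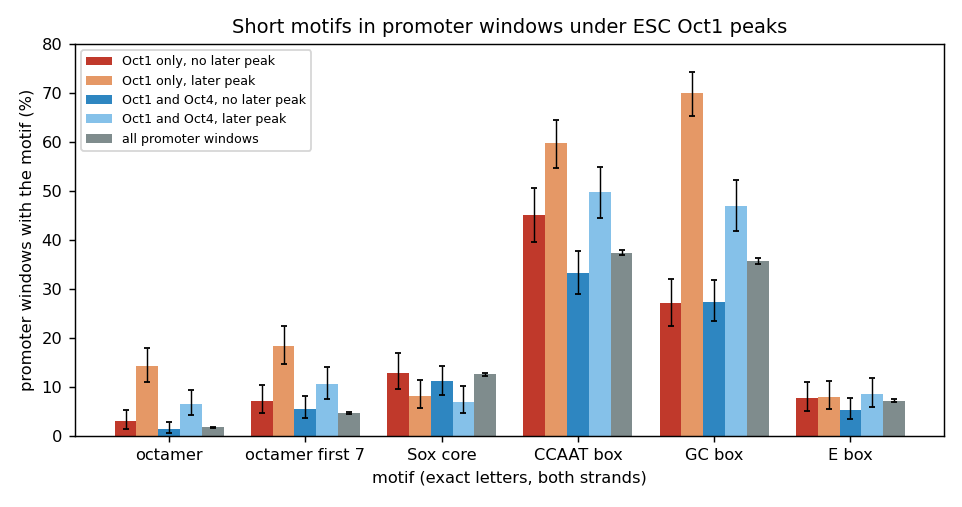
Share of promoter windows (y axis, percent, bars from 0 with exact 95% intervals) that hold each of 6 motifs on either strand. Shown are windows wholly or partly under the 4 classes of ESC Oct1 peak, and all 32851 windows. ESC Oct1-only sites (red) stand at 2.94% for the octamer and 27.1% for the GC box, where kept Oct1-only sites (orange) reach 14.2% and 69.9%.

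Per gene, ESC Oct1-only sites lay in the body or within 10 kb of 3601 of 21887 protein-coding genes (16.5%). Most of these genes were not free of the other peaks. An Oct4 peak lay at 71.8% of them (70.3 to 73.3), and a day 3 or day 6 Oct1 peak at 58.6% (56.9 to 60.2). Over all coding genes these shares were 40.2% and 45.6%. Over the 4114 coding genes that had ESC Oct1 peaks but no member they were 91.0% and 68.7%, which the rule raises, since a peak there is no member only by overlapping an Oct4 or later peak. At 45.7% (44.1 to 47.4) of the 3601 genes with a member every ESC Oct1 peak was a member, and 567 of the 3601 (15.7%) had neither an Oct4 nor a later Oct1 peak. Longer genes had members more often. The median length of genes with a member was 35108 bp against 17169 bp for all coding genes, and the share with a member went from 3.01% in the shortest of 10 length classes of genes to 33.5% in the longest.

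The genes with the most members were long, between 159 and 802 kb. Camta1, which encodes a calmodulin-binding transcription activator and spans 802 kb, had 21 members among its 50 ESC Oct1 peaks, beside 50 Oct4 peaks. Sez6l, a neuronal membrane protein gene, had 11 of 23. Cdh4, the gene of R-cadherin, had 9 of 25, the zinc transporter gene Slc39a11 had 9 of 30, and Zfp469 had 9 of 27. With 8 members each followed Ccdc60 (of 11 ESC Oct1 peaks), Igsf21 (of 23), the neuron navigator gene Nav2 (of 17), the postsynaptic scaffold gene Shank2 (of 12) and Tiam1, which encodes an activator of Rac (of 18). Nav2 had no Oct1 peak at day 3 or day 6, while Camta1 had 4 and 5. Set against the 36.0% of all ESC Oct1 peaks that were members, the share was 36.0% at Cdh4 and lower at Igsf21 (34.8%), Zfp469 (33.3%) and Slc39a11 (30.0%), while it was 72.7% at Ccdc60 and 66.7% at Shank2.

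Among 25 pluripotency genes, 10 had an ESC Oct1-only site (40.0%, 21.1 to 61.3), against 16.5% of all coding genes. ESC Oct1 peaks of any class were likewise at more of these genes, 16 of 25 (64.0%), than of all coding genes (35.2%). This list and the others were written with earlier results of these data known, so the counts describe and do not test. At Nanog, the site chr6:122707231-122707740 had its midpoint 3 bp before the annotated start and a score of 214 (percentile 80.8), and it covers the window printed above. It was the only ESC Oct1 peak at Nanog, and the nearest listed Oct4 peak was 19620 bp away. With 1 Oct4 library of unknown depth, the lack of a listed peak does not show that Oct4 was absent from this start. Tfcp2l1, a factor of naive pluripotency, had 3 members inside the gene, with scores of 179, 122 and 53, which were all its ESC Oct1 peaks, and no Oct4 or later peak. Nr5a2, a nuclear receptor that can activate Pou5f1, had 1 member of score 204 as its single ESC Oct1 peak and no Oct4 peak.

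Of the 10 pluripotency genes with a member, 6 also had an Oct4 peak in the body or within 10 kb, and 4 a later Oct1 peak. Among those with Oct4 peaks was Esrrb, an orphan nuclear receptor of the naive state. It had 5 members of 12 ESC Oct1 peaks, with scores from 48 to 323, beside 12 Oct4 peaks. The gaps from its members to an Oct4 peak were between 380 and 7100 bp. The highest scores on the list were those of Fgf4 (395), the growth factor with a well-known Oct4 and Sox2 enhancer, and of Stat3 (388), the transducer of the LIF signal. The other sites were at Utf1 (207), Klf2 (179), Tbx3 (69) and Tcl1 (53). The Utf1 site lay 120 bp from a day 3 Oct1 peak.

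Some signalling genes carried several members. Of 30 Wnt pathway genes 11 had one (36.7%, 19.9 to 56.1), against 16.5% of all coding genes and 22.2% of those in the length class that holds the list's median length. An ESC Oct1 peak of any class lay at 63.3% of the Wnt genes and 35.2% of all coding genes. The receptor gene Fzd8 had a site of score 1355, its only ESC Oct1 peak, 860 bp from a day 6 peak. The ligands Wnt3 (200), Wnt8a (134) and Wnt7b (101) had 1 member each. Among the transcription factors, Tcf7l1 had 6 of 14 ESC Oct1 peaks as members, with scores from 90 to 229, and Lef1 had 4 of 5, with scores from 71 to 164 and no later Oct1 peak. The co-receptor gene Lrp5 had 2, and Ctnnb1, which encodes beta-catenin, had 1 (125).

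Of 41 genes of TGF-beta, BMP and Nodal signalling 9 had a member (22.0%, 10.6 to 37.6), near the share of all genes. The series title names Smad factors as partners of Oct1. Smad3, a receptor-regulated Smad, had 6 of 11 ESC Oct1 peaks as members, with scores from 60 to 156. Smad1 had 1 (147) as its only ESC Oct1 peak, and the inhibitory Smads had 2 at Smad7 (190 and 62) and 1 at Smad6 (64). Among ligands Bmp7 had 3 (60 to 156) and Nodal 1 (102), and the Nodal antagonist Lefty1 had 1 (81).

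Of 26 FGF and MAPK genes 9 had a member (34.6%, 17.2 to 55.7), including Fgf4, which is on the pluripotency list too, against 16.5% of all coding genes. An ESC Oct1 peak of any class lay at 61.5% of them and 35.2% of all coding genes. Etv5, an ETS factor downstream of FGF signalling, had 2 members of scores 507 and 496 among 3 ESC Oct1 peaks and no Oct4 peak. The inhibitor gene Spred2 had 4 of 6 (62 to 179) and the adaptor gene Grb2 3 of 5 (75 to 122). Wnt and TGF-beta genes of the lists were long, with medians of 43282 and 39613 bp, and pluripotency genes short at 7145 bp. Length was not adjusted for, and its part in the counts was not tested.

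Against the same 16.5% of all coding genes, members lay at 5 of 26 genes of primitive streak and mesoderm (19.2%, 6.55 to 39.4), namely Mesp2 (310), Gata4 (217 and 71), Kdr (144), Tbx5 (88) and Foxf1 (48). They lay at 2 of 20 neural genes, Nes (193) and Pax6 (100), and at 3 of 15 trophoblast genes, Tead4 (167), Fgfr2 (53) and Gata3 (24). Earlier work had named 26 of the tested genes as targets of Oct1. Of these, 20 had an ESC Oct1 peak and only Taf12 had a member (3.85%, 0.0973 to 19.6). A day 3 Oct1 peak lay at 23 of the 26 and a day 6 peak at 15, and the rule leaves out ESC peaks that overlap one. The 26 genes had a median length of 2490 bp, in a length class where 7.81% of coding genes had a member. The parts of the rule and of length in this count were not tested. Taf12 encodes a TFIID subunit and its member scored 821.

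Genes of the POU family itself were near the 16.5% of all coding genes, with members at 3 of 16 (18.8%, 4.05 to 45.6). Pou2f2, which encodes Oct2 of B cells, had 5 of 7 ESC Oct1 peaks as members, with scores from 43 to 255. Pou2f3, the Oct11 gene of tuft cells and keratinocytes, had 1 (625), and Pou2f1, the gene of Oct1 itself, had 1 (71), 4034 bp outside the gene.

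**Figure D5:**
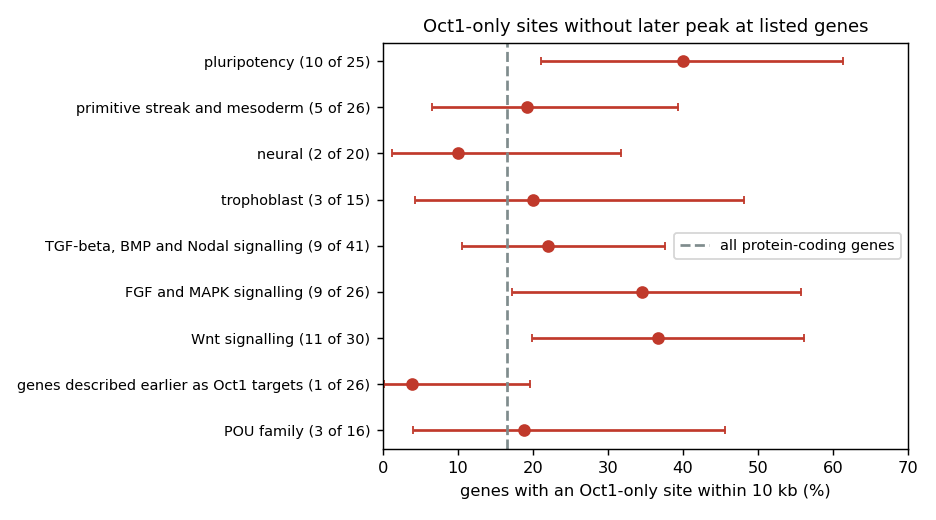
Share of the genes of 9 lists with an ESC Oct1-only site in the body or within 10 kb (x axis, percent, points with exact 95% intervals), beside the 16.5% of all protein-coding genes (dashed line). Pluripotency genes stand at 40.0%, Wnt genes at 36.7% and FGF and MAPK genes at 34.6%. Earlier known Oct1 targets stand at 3.85%, and 23 of these 26 genes had a day 3 Oct1 peak.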

How the data were processed

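The authors deposited 1 peak list per library, in 5 columns without a header (chromosome, start, end, name and score). The score is the authors' whole number per peak, deposited without a stated unit, and was used here only to rank peaks within a list. Build mm10 (GRCm38) and Novoalign 3.8.2 are named in the submitters' processing notes, and the peak caller, threshold and control are not given in the sources used here. Peak borders fall on multiples of 10 bp, and no peak is narrower than 500 bp. Stated depth was 100 M read pairs of 50 bp per library, per the labels' protocols, with crosslinking in 1% formaldehyde.

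Overlaps, gaps and motifs were computed in Python 3.11.15 with numpy 2.4.6, pandas 2.3.3 and scipy 1.17.1, and figures drawn with matplotlib 3.10.9. The overlap, gene-end and motif functions were tested on simulated data. Coordinates are 1-based. Genes (49943, of which 21887 protein-coding) and promoter windows came from RefSeq GRCm38.p6. The gene table gives no strand and windows cover 79.9% of coding genes, so the planned distance to gene starts was replaced by that to either gene end. No genome was used, so motifs were searched in promoter windows only. Shares carry exact Clopper-Pearson 95% intervals, medians order-statistic intervals, and differences of shares Newcombe intervals.

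The members and gene lists were chosen with earlier results of these data known. Named are the nearest genes of the 20 sites of highest score, or the first of them, the 10 coding genes with most members, list genes with a member (1 list is not reported here), the 15 best-scored promoter sites, and 3 sites on each side of the rule's boundary. Names outside this rule were chosen after their values were seen. Alternatives tried were a reciprocal overlap of 50%, widening of the other lists by 500 bp, the upper 50% of scores in either side, leaving out peaks with a neighbour within 10 kb, other distances, and score quartiles.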

Additional observations from a re-analysis of the deposited data

How the results depend on the processing

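Of 51 alternative values for 9 results, 28 differed from the reported value by less than its counting interval, or by less than 1.5 times for a count, and 23 moved further. The number of members, 6384, became 2920 when only the upper 50% of ESC Oct1 scores could be members, 10356 when only the upper 50% of scores in the other lists could exclude, and 3548 when ESC Oct1 peaks with a neighbour within 10 kb were left out. All 6384 members were among the 10356. In the same order of these 3 settings, the share inside genes became 61.8%, 66.6% and 61.3%, and the share within 10 kb of an Oct4 peak 45.2%, 65.9% and 22.3%. The share at gene ends became 16.5% with the upper 50% of ESC Oct1 scores and 15.4% without neighbours. The median score percentile became 74.0 with the first of the settings and 39.5 with the second, and the nearest protein-coding genes numbered 1574 with the first. The share within 10 kb of a later Oct1 peak, 15.1%, became 21.3% with the second and 9.08% with the third. A reciprocal overlap of 50% gave 53.9% within 10 kb of an Oct4 peak and 16.7% within 10 kb of a later peak, and other lists widened by 500 bp gave 45.6% for Oct4. By construction, wider windows raised shares, to 36.6% at gene ends for 5 kb (8.93% for 500 bp), and for 50 kb to 79.4% near Oct4 and 55.3% near later peaks. The octamer share of promoter windows stayed between 2.53% and 3.88% over the alternatives run, 2 of them chosen after seeing the data.

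The octamer share of whole peaks was not run, for want of a genome. No paired analysis was possible because each group has 1 library. The depth reached is unknown, so a missing peak cannot be told apart from one under the threshold.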

Other observations

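The following values were picked after the data had been seen. Among 33 imprinted genes, 7 had an ESC Oct1-only site (21.2%, 8.98 to 38.9), near the 16.5% of all protein-coding genes, through 8 distinct sites because neighbouring genes share some. Kcnq1ot1 had the highest score of these, 647, with its midpoint 21 bp after the annotated start, and a second site of score 53 inside the gene. Both also lie inside Kcnq1, which overlaps it. Kcnq1ot1 had no other ESC Oct1 peak and no Oct4, day 3 or day 6 peak within 10 kb. Grb10, a growth-restraining adaptor gene, had a site of score 366. At the Dlk1 and Meg3 domain on chromosome 12 there was a site 6419 bp before the start of Dlk1 (score 98) and 2 sites beside Meg3 (71 and 67). Of these, the one of score 71 overlaps the hairpin of Mir673 and lies inside Rtl1. Snrpn had a site of score 36.

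Of 1005 miRNA hairpins, 7 were overlapped by an ESC Oct1-only site, through 5 sites, or 0.0783% of the members. Of all ESC Oct1 peaks 27 (0.152%) overlapped a hairpin, and of shared lost sites 18 (0.198%). Besides the site at Mir673, the members were 1 over the erythroid hairpins Mir144, Mir451a and Mir451b (score 111) and those at Mir6352 (310), Mir326 (133) and Mir8096 (90).

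Chromosome 11 held the most ESC Oct1-only sites of any chromosome, 703, and yet the smallest share of its own peaks among autosomes. There 28.1% (26.3 to 29.9) of 2503 ESC Oct1 peaks were members, against 33.4% to 41.5% on the other autosomes. Shared lost sites made up 56.8% of the peaks of chromosome 11. Of the coding genes, 7.35% are on this chromosome.

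In the highest quartile of score, 58.5% of 142 member windows held a CCAAT box, against 34.7% of 167 windows of shared lost sites and 61.4% of 295 windows of kept Oct1-only sites. In quartiles 1, 2 and 3, from the lowest, the share was 37.5%, 37.5% and 33.0% of member windows, against 28.0%, 41.2% and 30.3% of windows of shared lost sites.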
